A study of Mus musculus with 237 samples.

Results

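The expression of 10 focal adhesion genes was compared between epithelial and mesenchymal cells of mouse fetal skin. Itga3, Itgb1, Fermt1, Fermt2, Tln1, Vcl, Actn1, Actn4, Zyx and Pxn were taken by the Ensembl gene ID of their symbol, 10 of 55335 genes in the count table. Focal adhesions join the actin cytoskeleton to the extracellular matrix. Integrins, dimers of an alpha and a beta chain, bind the matrix outside the cell. Talin and a kindlin bind the beta chain from the inside and switch the dimer to its active form, and vinculin, alpha-actinin, zyxin and paxillin link or signal from this site to actin. In the epidermis the same beta chain pairs with Itga3 at the basement membrane, and loss of kindlin-1, the product of Fermt1, causes the human blistering disease Kindler syndrome.

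Single cells came from the skin of C57BL/6N fetuses at E14.5, with 66 cells of 3 wild-type (WT) embryos and 171 cells of 7 p63 knockout embryos in the labels. The labels include 70 knockout fibroblasts, all of embryo MU01, and name no WT fibroblast. They also include 13 unknown cells and 11 libraries marked as omitted, and no column was left out by its label. The p63 knockout was made by introducing Cas9 ribonucleoprotein into zygotes, and the embryos were carried by surrogate ICR mothers. WT epidermis was separated from dermis with dispase and then treated with trypsin, while knockout fetuses were digested with trypsin without that step. Cells negative for propidium iodide, CD45, TER119 and CD140a, the product of Pdgfra, were sorted, and their cDNA was screened by qPCR for Krt5 (WT) or Krt8 (knockout) and for the absence of Pdgfra. Every cell gave 1 library by SMART-Seq HT, a method for whole transcripts in which no molecule is tagged.

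The count table names its columns, 1 per cell, by sequencing run. The annotated cell type was paired with 16 of them, all from embryo WT01, and the embryo and genotype of the other 221 columns were not used here. All columns were therefore sorted into states by marker genes, by their CPM (counts scaled to a column total of 1000000). A total of 79 columns were mesenchymal (Col1a1 and Col3a1 at least 100 CPM), 66 were simple (Krt8 and Krt18 at least 100 CPM, Krt5 and Krt14 under 100 CPM) and 54 were basal (Krt5 and Krt14 at least 300 CPM, Krt8 under 100 CPM). A further 39 met none of these limits, and 1 column met both the mesenchymal and the simple limits. The states are sets of cells pooled over embryos, so they have no replicates, no test was made between them, and state, genotype, embryo and preparation cannot be told apart. Levels are given as CPM of the summed counts of a state, with exact 95% Poisson intervals that cover counting error only.

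Total counts lay between 2701500 and 19197138 per column, and 6951 to 13204 genes per column had a count. The median total was 6093577 in mesenchymal, 7277067 in simple and 7821784.5 in basal columns. Summed fibroblast markers were at least 100 CPM in all 79 mesenchymal columns, and summed epithelial markers in 63 of 66 simple and 54 of 54 basal columns and in 0 of 79 mesenchymal columns. Pdgfra, the target of the sort and of the qPCR screen, had a median of 256 CPM in mesenchymal columns and of 0 CPM in simple and basal columns. Fibroblast genes were not absent from epithelial columns. The summed fibroblast markers reached 100 CPM in 62 of 66 simple and 54 of 54 basal columns. Median simple and basal levels were 369 and 483 CPM for Dcn, 108 and 515 CPM for Postn and 57.8 and 157 CPM for Col5a1. Every other marker of the list had a median under 1 CPM in both, and Twist2 and Pdgfrb had 0 counts in the basal columns. Col3a1, which helped to set the mesenchymal state, had summed levels of 413 CPM in simple and 5.50 CPM in basal columns. Erythroid markers reached 100 CPM in 11 simple, 3 basal and 0 mesenchymal columns, with 1 simple column at 470878 CPM. Pericyte or smooth muscle markers reached it in 35 mesenchymal, 3 simple and 3 basal columns, neuron markers in 5 and muscle markers in 10 mesenchymal columns, both in 0 simple and 0 basal columns. Periderm markers reached it in 48 of 66 simple and 26 of 54 basal columns. Suprabasal markers did so in 14 of 54 basal and basal keratinocyte markers in 55 of 66 simple columns. The epithelial states thus held markers of other layers. Near the marker limits, 6 columns lay within 20% of the Col1a1 limit, with the lowest mesenchymal column at 101 CPM and the highest column outside at 97.3 CPM. The keratin limits had 0 to 4 columns within 20%.

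The widest differences between the states lay in Itga3, Fermt1 and Fermt2. Mesenchymal columns had the most Itgb1 and Fermt2, no counts of Fermt1 and almost none of Itga3. Basal columns had the most Itga3 and Fermt1. Simple columns were close to basal columns in Itgb1 and Actn4, with less Itga3 and much less Fermt1.

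**Figure D1:**
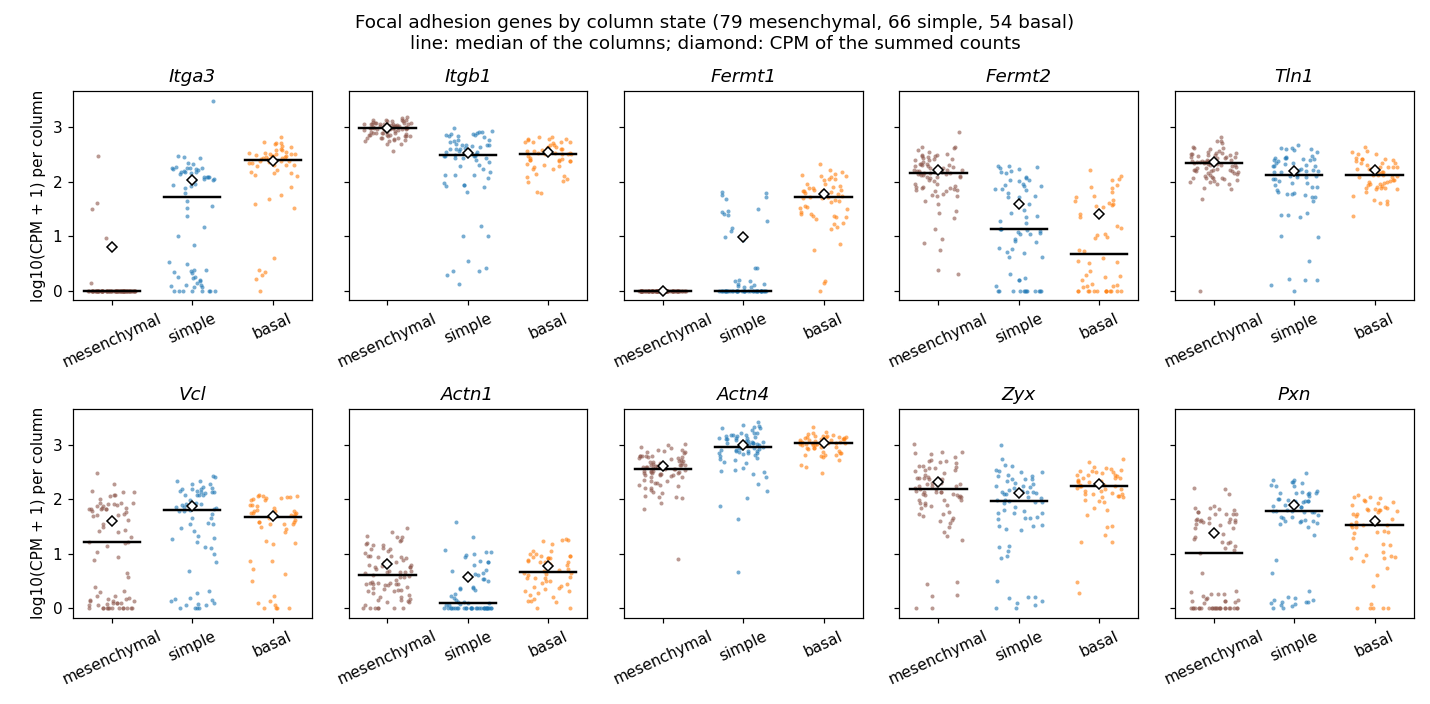
Each panel plots 1 gene as log10(CPM + 1) per column (vertical axis) in mesenchymal, simple and basal columns (horizontal axis). Points are columns, lines their medians and diamonds the CPM of the summed counts. Fermt1 lies at 0 in all 79 mesenchymal columns, Itgb1 is highest in them (947 CPM), and the summed level of Actn1 is 2.76 to 5.61 CPM.

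Itgb1 encodes integrin beta 1, the chain shared by most matrix-binding integrins of skin (ENSMUSG00000025809, GRCm38 chromosome 8, 128685654 to 128733200, plus strand). The lowest, median and highest column had 371, 953 and 1521 CPM in the mesenchymal state, 0.310, 309.8 and 961 CPM in the simple state, and 60.2, 323 and 652 CPM in the basal state. The summed level was 947 CPM (944.7 to 950.2) in mesenchymal, 334 CPM (332 to 335) in simple and 344 CPM (343 to 346) in basal columns. All 79 mesenchymal columns lay above the median basal column, and 0 of 54 basal columns lay above the median mesenchymal column, although the ranges overlapped. The mesenchymal level was 2.75-fold higher than the basal and 2.84-fold higher than the simple level, while simple and basal differed 1.03-fold. In 8 of 66 simple columns Itgb1 was under 10 CPM.

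Itga3 encodes integrin alpha 3, which pairs with beta 1 to bind laminin (ENSMUSG00000001507, chromosome 11, 95044474 to 95076801, minus strand). Its lowest, median and highest column had 0, 0 and 292 CPM in the mesenchymal state, 0, 51.9 and 3088 CPM in the simple state, and 0, 247 and 673 CPM in the basal state. No count was found in 74 of 79 mesenchymal columns, and in 1 of 54 basal columns. The summed level was 5.26 CPM in mesenchymal, 106 CPM (105 to 107) in simple and 240.6 CPM (239 to 242) in basal columns, which is 45.8-fold lower in mesenchymal and 2.27-fold lower in simple than in basal columns.

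Single columns carried a large share of the lower Itga3 sums. The mesenchymal maximum of 292 CPM was the column that also met the simple limits, with Col1a1 at 540.3 CPM and Krt8 at 169 CPM, and without it the mesenchymal level was 0.920 CPM. The simple maximum of 3088 CPM was a column with 2303 CPM of summed erythroid markers, Itgb4 at 1809 CPM and Itgb1 at 0.310 CPM, and without it the simple level was 71.8 CPM. With the mean of the columns' CPM in place of the sum, Itga3 was no longer 2-fold lower in simple than in basal columns (log2 difference -0.98). The part of erythroid RNA in that value was not tested.

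Kindlins bind the tail of the beta chain beside talin. Kindlin-1 (Fermt1) is the epithelial form, kindlin-2 (Fermt2) is expressed in most tissues, and kindlin-3 (Fermt3) is known from blood cells. The stretches upstream of the RefSeq start sites of Fermt1 and Fermt2 are shown because these paralogs were ordered in opposite ways over the states, and that of Vcl because it shares a motif with Fermt2. They are read from RefSeq windows on GRCm38.p6, from 250 bases before the start up to the start, and end earlier where the GENCODE gene begins. Capitals mark motif matches on either strand. The motifs searched were the CArG box, which serum response factor binds, and GGAATG, a motif of the TEAD factors, in windows that also hold 50 bases after the start.
Fermt1 (chr2:132946037-132946286, minus strand): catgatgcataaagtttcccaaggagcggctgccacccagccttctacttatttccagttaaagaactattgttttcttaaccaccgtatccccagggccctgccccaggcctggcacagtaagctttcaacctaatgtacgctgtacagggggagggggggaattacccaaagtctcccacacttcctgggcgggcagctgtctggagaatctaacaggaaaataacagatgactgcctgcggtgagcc
Fermt2 (chr14:45530119-45530315, minus strand): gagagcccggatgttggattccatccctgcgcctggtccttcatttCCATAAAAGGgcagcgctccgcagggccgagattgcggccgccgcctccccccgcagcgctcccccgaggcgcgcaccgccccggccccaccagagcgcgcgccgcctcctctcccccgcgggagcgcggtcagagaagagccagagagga
Vcl (chr14:20929148-20929397, plus strand): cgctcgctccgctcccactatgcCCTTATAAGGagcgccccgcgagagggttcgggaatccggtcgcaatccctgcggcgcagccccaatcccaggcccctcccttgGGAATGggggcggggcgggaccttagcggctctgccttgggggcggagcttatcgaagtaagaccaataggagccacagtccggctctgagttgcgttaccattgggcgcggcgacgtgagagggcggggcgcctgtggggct
A CArG box stood 204 bases before the Fermt2 start and 227 bases before the Vcl start, and such a match was in 1.63% of 32851 promoter windows. GGAATG was in the windows of Vcl, Actn4 and Itgb1, and in 14.7% of all windows. The Fermt1 window held neither motif, and no window of a member held a half-site of the p53 family, searched by its consensus and present in 8.36% of all windows. The 250 upstream bases were 52.4% G and C with 5 CpG in Fermt1 and 76.0% with 31 CpG in Fermt2, against medians of 52.4% and 6 over all windows. Windows were found for 9 of the 10 genes (not Pxn), with 2 for Itga3. A match is a description of letters, not a bound site.

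Fermt1 (ENSMUSG00000027356, chromosome 2, 132904389 to 132945906, minus strand) had 0 counts in each of the 79 mesenchymal columns. In simple columns the lowest, median and highest values were 0, 0 and 64.9 CPM, and in basal columns 0, 51.4 and 210.8 CPM. No count was found in 40 of 66 simple and 1 of 54 basal columns. The summed level was 8.59 CPM (8.35 to 8.83) in simple and 59.5 CPM (58.8 to 60.2) in basal columns, 6.93-fold lower in simple. By a limit of 3 counts over the summed columns (0.00626 CPM), the mesenchymal sum was at least 9501-fold under the basal and 1371-fold under the simple level. These folds cover counting error only. They do not bound the difference between the states, since columns of a state vary and some lack counts.

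Fermt2 (ENSMUSG00000037712, chromosome 14, 45458795 to 45530118, minus strand) was ordered the other way. Its lowest, median and highest column had 0.998, 141 and 819.9 CPM in the mesenchymal state, 0, 12.4 and 194.7 CPM in the simple state, and 0, 3.62 and 159 CPM in the basal state. The summed level was 164.5 CPM (163 to 166) in mesenchymal, 38.5 CPM (38.02 to 39.04) in simple and 24.1 CPM (23.7 to 24.6) in basal columns. The mesenchymal level was 6.82-fold higher than the basal and 4.27-fold higher than the simple level, and 77 of 79 mesenchymal columns lay above the basal median. Simple columns were 1.597-fold above basal columns in the sum, with 47 of 66 above the basal median, and the medians over columns were 12.4 and 3.62 CPM.

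The ratio of the paralogs differed between the states, but single columns overlapped. The log2 ratio per column was -9.68 to -0.998 in mesenchymal, -7.61 to 4.65 in simple and -5.09 to 7.73 in basal columns. Fermt2 was above Fermt1 in 79 of 79 mesenchymal and 48 of 66 simple columns, and Fermt1 above Fermt2 in 12 of 66 simple and 45 of 54 basal columns. The log2 ratio of Fermt1 to Fermt2 in the summed counts was 1.30 in basal and -2.17 in simple columns, a difference of 3.47 or 11.1-fold. In mesenchymal columns this ratio was -14.68 or lower by the limit of 3 counts, which covers counting error only. At a limit of 10 CPM, both kindlins were present in 18 of 54 basal and 9 of 66 simple columns, and only Fermt1 in 31 basal and 4 simple columns. Only Fermt2 was present in 74 mesenchymal, 30 simple and 4 basal columns, and neither in 5 mesenchymal, 23 simple and 1 basal column. Fermt3, the third kindlin, was low in every state, at 0.111 CPM in mesenchymal, 1.93 CPM in simple and 2.58 CPM in basal columns.

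**Figure D2:**
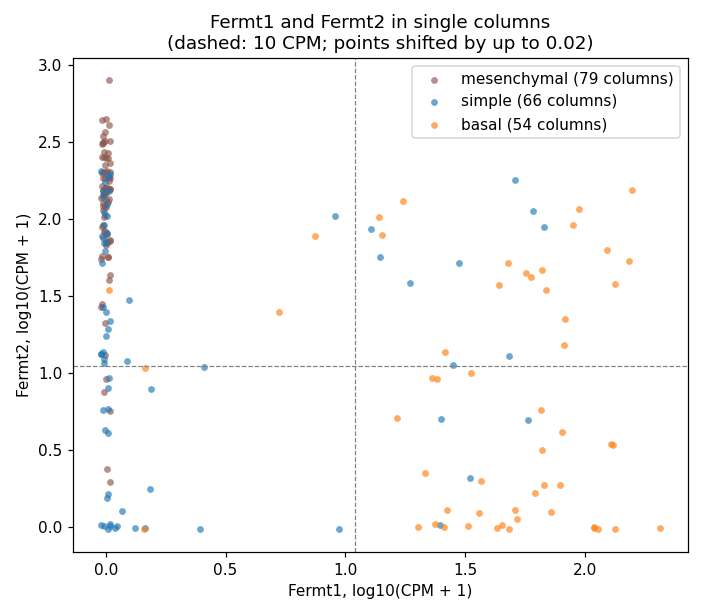
Fermt1 (horizontal) against Fermt2 (vertical) in single columns, both as log10(CPM + 1), colored by state, with dashed lines at 10 CPM. Mesenchymal columns stand on the left edge, basal columns spread along the Fermt1 axis with 18 of 54 above both lines, and 23 of 66 simple columns lie under both.

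Talin-1, encoded by Tln1 (ENSMUSG00000028465, chromosome 4, 43531519 to 43562691, minus strand), ties the integrin tail to actin. Its lowest, median and highest column had 0, 215 and 653 CPM in the mesenchymal state, 0, 129 and 479.8 CPM in the simple state, and 22.7, 131 and 429 CPM in the basal state. The summed levels were 224, 155 and 159 CPM, so that mesenchymal columns were 1.41-fold above basal columns and simple and basal columns differed 1.03-fold. Tln2, the second talin, was lower in each state in CPM and likewise highest in mesenchymal columns, with 55.5 CPM in mesenchymal, 27.1 CPM in simple and 15.5 CPM in basal columns.

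Vinculin (Vcl, ENSMUSG00000021823, chromosome 14, 20929398 to 21033676, plus strand) binds talin that is stretched and adds links to actin. It had medians of 15.6, 61.8 and 45.9 CPM in mesenchymal, simple and basal columns, with highest columns of 304, 271 and 118 CPM and lowest columns of 0 CPM. The summed levels of 38.2, 74.4 and 49.02 CPM made the mesenchymal level 1.95-fold lower than the simple and 1.28-fold lower than the basal level. The median over columns was more than 2-fold lower in mesenchymal than in either epithelial state. Of the exon bases of Vcl, 25.5% are shared with Ap3m1 on the other strand, and without a stated strand setting the reads of such bases cannot be assigned. Smaller shares, 3.67% to 8.15%, of the exon bases of Tln1, Zyx, Actn4 and Actn1 also lie in other genes.

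The alpha-actinins crosslink actin and bind integrin tails, vinculin and zyxin. Actn4 (ENSMUSG00000054808, chromosome 7, 28893248 to 28962340, minus strand) was the more abundant in every state. Its lowest, median and highest column had 7.12, 366 and 1056 CPM in the mesenchymal state, 3.65, 909 and 2583 CPM in the simple state, and 297, 1084 and 2138 CPM in the basal state. The summed level was 404 CPM (402 to 406) in mesenchymal, 1006 CPM (1003 to 1008) in simple and 1097 CPM (1094 to 1099.7) in basal columns. The mesenchymal level was thus 2.71-fold lower than the basal and 2.49-fold lower than the simple level, and 0 of 79 mesenchymal columns reached the basal median.

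Actn1 (ENSMUSG00000015143, chromosome 12, 80167547 to 80260371, minus strand) was low in every state. Its medians were 3.05, 0.230 and 3.60 CPM and its highest columns 28.4, 37.7 and 17.8 CPM in the mesenchymal, simple and basal states. The summed levels were 5.61 CPM (5.40 to 5.83), 2.76 CPM (2.63 to 2.90) and 4.91 CPM (4.71 to 5.12), and the simple level was 1.86 CPM without its highest column. Actn4 was above Actn1 in 78 of 79 mesenchymal, 66 of 66 simple and 54 of 54 basal columns. The log2 ratio of Actn1 to Actn4 was -6.17 in mesenchymal, -8.51 in simple and -7.80 in basal columns and so 3.10-fold lower in basal than in mesenchymal columns. Actn1 itself differed 1.14-fold between these states. The muscle forms were low too, with Actn2 at 1.89, 0.0494 and 1.90 CPM and Actn3 at 5.68, 0.00705 and 0.281 CPM in the same order.

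Zyxin (Zyx, ENSMUSG00000029860, chromosome 6, 42349630 to 42360213, plus strand), a LIM protein of tensed actin fibers, had medians of 154, 94.1 and 175 CPM in mesenchymal, simple and basal columns. Its summed levels were 208, 129 and 194 CPM, with highest columns of 1033, 973 and 549 CPM. Mesenchymal and basal columns differed 1.07-fold, and simple columns were 1.62-fold lower than mesenchymal and 1.51-fold lower than basal columns. Its relatives Trip6 and Lpp were also spread over all states, Trip6 with 238, 191 and 237.04 CPM and Lpp with 181, 272 and 192 CPM.

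Paxillin (Pxn, ENSMUSG00000029528, chromosome 5, 115506676 to 115555987, plus strand), a scaffold for focal adhesion kinase and its partners, was highest in simple columns. Its medians were 9.55, 59.6 and 33.1 CPM and its highest columns 159, 298 and 117 CPM in the mesenchymal, simple and basal states, and the lowest column of each had 0 CPM. The summed levels were 23.1 CPM (22.6 to 23.5), 77.7 CPM (77.02 to 78.5) and 39.7 CPM (39.1 to 40.3). The mesenchymal level was 3.37-fold lower than the simple and 1.72-fold lower than the basal level, and the simple level was 1.96-fold higher than the basal level. The paxillin relative Tgfb1i1 (Hic-5) was ordered otherwise, with 115 CPM in mesenchymal, 10.4 CPM in simple and 2.04 CPM in basal columns. Lpxn, the third member of that family, had 0 counts in the mesenchymal and basal columns and 0.138 CPM in simple columns.

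Differences of 2-fold or more were counted over genes with at least 10 CPM in either state of a comparison. This limit of size is not a test. A counted gene with under 10 CPM in either state can only be higher in the other. This holds for Fermt1 and Itga3 between mesenchymal and basal columns. Between mesenchymal and basal columns, 9 of the 10 genes were counted (not Actn1), of which 2 were higher in mesenchymal (Itgb1, Fermt2), 3 were lower (Itga3, Fermt1, Actn4) and 4 lay within 2-fold. Of all 10971 genes counted the same way, 36.3% differed by 2-fold, 17.1% higher and 19.1% lower in mesenchymal. The median log2 difference was -0.36 for the 9 genes and -0.27 for all genes, and the folds and counts were not corrected for that shift.

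Between simple and basal columns, 0 of 9 genes were 2-fold higher, 2 were lower (Itga3, Fermt1) and 7 lay within 2-fold, beside 27.2% of 10762 genes in either direction, 15.4% higher and 11.8% lower in simple. Pxn, with 1.96-fold, was just inside the limit. Between mesenchymal and simple columns, 8 genes were counted (not Actn1 and Fermt1), with 2 higher in mesenchymal (Itgb1, Fermt2), 3 lower (Itga3, Actn4, Pxn) and 3 within 2-fold. Of all 11237 genes, 40.2% differed there, 16.96% higher and 23.2% lower in mesenchymal, with a median log2 difference of -0.24. Each comparison shares its columns with another, so their values are not independent. The share of the counted members past 2-fold was 55.6% in mesenchymal against basal, 22.2% in simple against basal and 62.5% in mesenchymal against simple columns, and nothing is read from shares of so few genes.

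**Figure D3:**
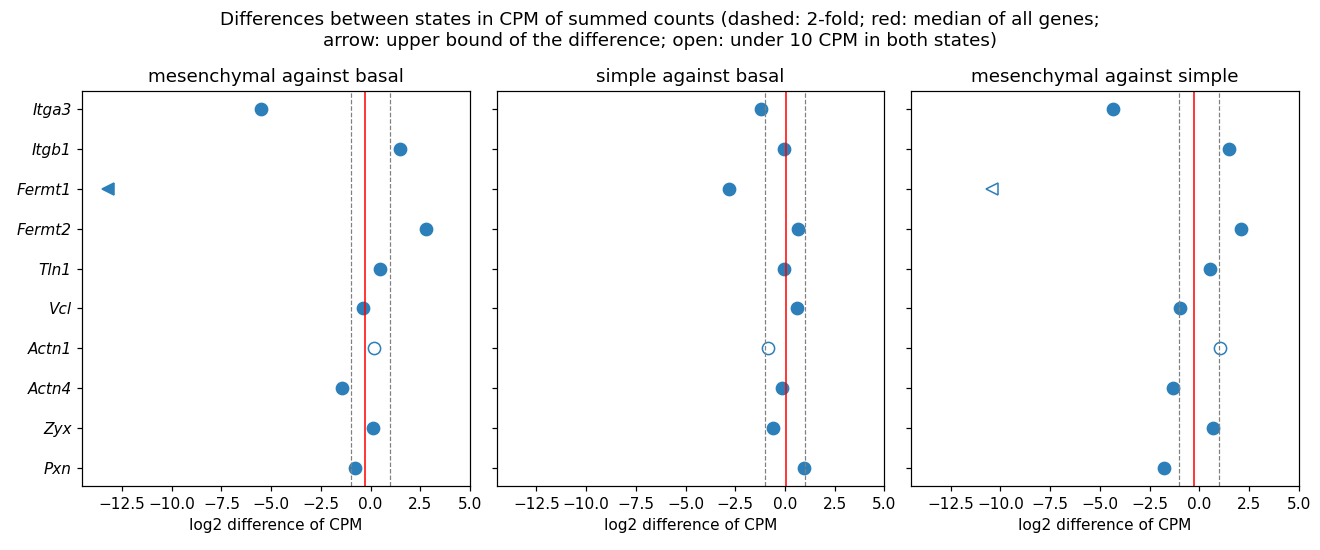
Log2 difference of the CPM of summed counts (horizontal axis) for the 10 genes (vertical axis) in the comparisons of mesenchymal against basal, simple against basal and mesenchymal against simple columns. Dashed lines mark 2-fold, red lines the median of all genes, arrows an upper bound by counting error only (Fermt1, -13.21 and -10.42) and open symbols genes under 10 CPM in both states. Itga3 and Fermt1 lie left of the 2-fold line in the first and second comparison, and Itgb1 and Fermt2 right of it in the first and last.

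To compare genes with each other, summed CPM were divided by the union of annotated exons in kilobases. In mesenchymal columns the order was led by Itgb1 at 232 CPM per kb, then Actn4 at 65.97, Zyx at 38.7 and Fermt2 at 31.7 CPM per kb. In basal columns it was led by Actn4 at 179 CPM per kb, then Itgb1 at 84.4, Itga3 at 42.1 and Zyx at 36.03 CPM per kb. In simple columns Actn4 at 164 and Itgb1 at 81.8 CPM per kb again stood first. Integrin beta 1 and alpha-actinin-4 thus exchanged the leading rank between the mesenchymal and the epithelial states. Kindlin levels per length were 31.7 (Fermt2) in mesenchymal columns and 10.4 (Fermt1) and 4.65 (Fermt2) CPM per kb in basal columns. Actn1 was the lowest in simple and basal columns, at 0.499 and 0.888 CPM per kb.

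Detection was also compared at equal depth, with each column thinned to 500000 counts, which left out 0 columns. Fermt1 was then found in 0 of 79 mesenchymal columns, which allows a share of up to 3.80% by the limit of 3 columns, and in 16 of 66 simple columns (24.2%, exact 95% binomial interval 14.54% to 36.4%) and in 52 of 54 basal columns (96.3%, 87.3% to 99.5%). These are shares of pooled columns with a count at this depth, not of cells that express the gene. The limit of 3 columns and the binomial intervals treat columns as independent. They do not cover differences between embryos, which the columns share. Without thinning it was found in 26 simple and 53 basal columns. Itga3 was found in 4 of 79 mesenchymal (5.06%, 1.397% to 12.5%), 46 of 66 simple (69.7%, 57.1% to 80.4%) and 50 of 54 basal columns (92.6%, 82.1% to 97.9%), against 5, 58 and 53 columns without thinning. Itgb1 and Actn4 were found in all 79 mesenchymal and all 54 basal columns at the thinned depth. Actn1 was found in 58 of 79 mesenchymal, 20 of 66 simple and 43 of 54 basal columns, so its low level was spread over many columns of the mesenchymal and basal states.

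Across all columns of the table, the level of Fermt1 was most like those of the basal keratins Krt5 and Krt14 (Spearman's rho 0.77 and 0.75) and of Kremen2, a receptor of the Wnt pathway (0.72), among 14639 genes. Itga3 was most like Gjb6 (connexin 30, 0.79), Kremen2 (0.77) and Bcam, a laminin receptor (0.76). Fermt2 was most like Ddah1, the lysyl oxidase Loxl2 and Pmp22 (0.62 each), and Actn1 was like no gene beyond 0.43 (Zfp36l2). These values describe columns that share libraries and differ in state, and Krt5 and Krt14 were also used to set the states.

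Members were also correlated with each other. Over all columns, rho was 0.64 for Itga3 with Fermt1, 0.54 for Itgb1 with Fermt2 and -0.47 for Fermt1 with Fermt2. Within states these pairs were weaker. In simple and basal columns rho was 0.11 and -0.09 for Itga3 with Fermt1, and -0.14 and -0.02 for Fermt1 with Fermt2. For Itgb1 with Fermt2 it was 0.14, 0.18 and -0.07 in mesenchymal, simple and basal columns. The median over pairs of members was 0.07 over all columns and 0.02 in mesenchymal, 0.13 in simple and 0.06 in basal columns. The highest pair was Vcl with Actn4 in simple columns (0.49), and Itga3 with Itgb1 and with Pxn in basal columns (0.42 each). Fermt1 had no values to correlate in mesenchymal columns.

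In the 39 columns that met no set of limits, the summed levels of 6 of the 10 genes lay within the range of the 3 states. Among these were Itga3 at 66.7 CPM, Fermt1 at 13.6 CPM, Fermt2 at 44.5 CPM and Actn4 at 1094 CPM. Itgb1 (316 CPM) and Tln1 (112 CPM) were below all 3 states. Zyx (249.9 CPM) and Vcl (93.01 CPM) were above all 3 states there, and Zyx had 192 CPM without the highest column.

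Around the members, 81 further genes of the adhesion machinery were counted in the same way. Between mesenchymal and basal columns, 61 of the 81 had at least 10 CPM in either state, with 22 higher and 16 lower in mesenchymal and 23 within 2-fold, and a median log2 difference of 0.40. Between simple and basal columns, 57 were counted, with 11 higher and 13 lower in simple, and between mesenchymal and simple columns 61, with 19 higher and 13 lower in mesenchymal. The medians were 0.19 and 0.32 in these comparisons, beside 0.04 and -0.24 for all genes. Of all genes, 17.1% were higher and 19.1% lower in mesenchymal than in basal columns. The shares were 15.4% and 11.8% in simple against basal and 16.96% and 23.2% in mesenchymal against simple columns.

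Of 12 further alpha chains, 9 were counted between mesenchymal and basal columns, with 6 higher and 2 lower in mesenchymal, beside 17.1% and 19.1% of all genes. Itga1, Itga4, Itga7, Itga8 and Itga11 reached 10 CPM only in mesenchymal and Itga2 only in basal columns, which fixed their direction. Itga5, the fibronectin receptor chain, had 98.0 CPM in mesenchymal, 3.64 CPM in simple and 15.6 CPM in basal columns. Itga8, another RGD-binding chain, had 82.7 CPM in mesenchymal and 0.0141 CPM in simple columns, and its 2.43 CPM in basal columns came from 1 of 54 columns. Itga1, Itga4, Itga7 and Itga11, chains for collagen, cell-bound ligands and laminin, had 64.8, 38.8, 47.8 and 31.3 CPM in mesenchymal columns and 7.42, 0.00865, 0.225 and 0 CPM in basal columns. These sums came from a minority of columns, since the mesenchymal medians were 0.797, 0.539, 0.298 and 0 CPM, and Itga7 reached 10 CPM in 14 and Itga11 in 19 of 79 columns. Pericyte or smooth muscle markers reached 100 CPM in 35 and muscle markers in 10 mesenchymal columns, and their part in these sums was not tested. The laminin and collagen chains of epithelia differed in other ways. Itga6, the hemidesmosomal laminin chain, had 26.97, 17.1 and 88.3 CPM in mesenchymal, simple and basal columns, and its partner Itgb4 had 1.23, 48.5 and 231 CPM. Itga2, a collagen receptor chain of basal keratinocytes, had 0.271, 0.0106 and 18.97 CPM, with a median of 0.175 CPM over basal columns.

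Between simple and basal columns, 4 of the 12 alpha chains were counted and these 4 were lower in simple, beside 11.8% of all genes. Of these, Itga2 and Itga5 reached 10 CPM in basal but not in simple columns, which fixed their direction. Among the beta chains, Itgb5 had 24.8, 10.2 and 52.6 CPM and Itgb6, an epithelial chain known for activating TGF-beta, had 0.280, 13.3 and 4.96 CPM in mesenchymal, simple and basal columns. Itgb3, the vitronectin receptor chain, had 13.01 CPM in mesenchymal columns and 0.00353 and 0.307 CPM in the epithelial states. The median column had 0 CPM of Itgb3 in the mesenchymal and of Itgb6 in the simple state, so these sums came from a minority of columns. The summed simple levels of Itgb4 rested in part on the column highest for Itga3, without which Itgb4 had 28.3 CPM. Without its highest column, the simple level of Itgb5 was 5.82 CPM.

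Of 15 genes of the activators and the ILK complex, the partners of kindlin and talin, 9 were counted between mesenchymal and basal columns, with 7 higher and 1 lower in mesenchymal, beside 17.1% and 19.1% of all genes. Between simple and basal columns, 8 of the 9 counted lay within 2-fold, while 27.2% of all genes differed by 2-fold or more. Ilk, the pseudokinase at its core, had 248 CPM in mesenchymal, 67.5 CPM in simple and 66.3 CPM in basal columns. In simple columns, 44 of 66 had no Ilk count, beside 14 of 54 basal columns, so that equal sums came from fewer columns. Parva had 203, 151 and 70.1 CPM and Lims1 164, 101 and 76.8 CPM. Kank2 had 83.6, 18.8 and 17.97 CPM while its paralog Kank1 had 20.4, 127 and 99.0 CPM, so that mesenchymal columns were highest for one and lowest for the other, and both were somewhat higher in simple than in basal columns. Both encode talin-binding proteins at the rim of adhesions.

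Among kinases and adaptors, 8 of 11 genes lay within 2-fold between mesenchymal and basal columns, while 36.3% of all genes differed by 2-fold or more. Fyn, a kinase of the Src family, had 139.8, 16.5 and 10.95 CPM in mesenchymal, simple and basal columns, while the adaptor Nedd9 had 19.3, 62.5 and 149 CPM. Ptk2b, a relative of focal adhesion kinase, had 2.24, 29.7 and 6.03 CPM. The medians over simple columns were only 0.261 CPM for Ptk2b and 0.854 CPM for Nedd9. Among the LIM proteins, 4 of 8 were lower and 1 of 8 was higher in mesenchymal than in basal columns. The shares of all genes were 19.1% lower and 17.1% higher. Ajuba had 32.4, 131 and 570.2 CPM, Tes 16.8, 148 and 92.2 CPM and Fblim1 8.86, 60.02 and 38.8 CPM.

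Of the actin linkers, 6 of 19 were higher and 5 of 19 lower in mesenchymal than in basal columns, beside 17.1% and 19.1% of all genes. The filamin Flnc had 138, 15.5 and 0.214 CPM, with 10.1 CPM in simple columns without the highest. The tensins Tns2 and Tns1 had 129 and 99.6 CPM in mesenchymal, 3.93 and 17.2 CPM in simple and 11.03 and 55.6 CPM in basal columns. Tns4, the tensin known from epithelia, had 0 counts in mesenchymal and 10.01 CPM in basal columns (6.47 CPM without the highest). The nonmuscle myosins were split, with Myh10 at 394, 215 and 76.97 CPM and Myh9 at 43.97, 205 and 141 CPM. Pdlim1, a partner of alpha-actinin, had 35.3, 540.3 and 456 CPM, lowest in mesenchymal columns like Actn4 and highest in simple columns.

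**Figure D4:**
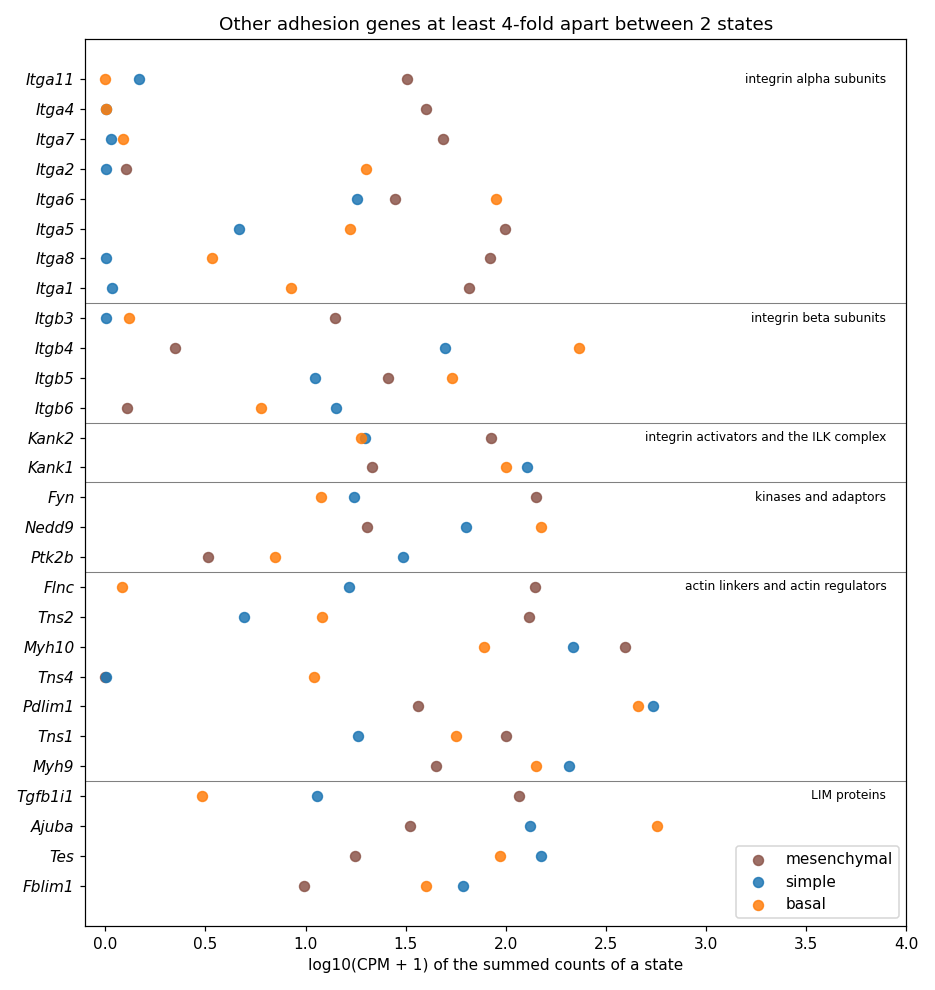
Levels of the adhesion genes with at least 10 CPM in a state and 4-fold between any 2 states (at most 3 per role, comparison and direction), as log10(CPM + 1) of the summed counts (horizontal axis), by role (vertical axis). Colors stand for the states. The alpha chains Itga11, Itga4, Itga7, Itga8, Itga5 and Itga1 lie highest in mesenchymal columns, and Itga2, Itga6, Itgb4, Itgb5 and Ajuba in basal columns.

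In the 16 cells with a label, basal keratinocytes (WT-KCB, 11 cells) were compared with WT-KCP (4 cells) and WT-KCI (1 cell) of the same embryo. WT-KCP cells are labelled K17 high, and the paper annotates this group to the periderm. The WT-KCI cell is labelled intermediate layer. All 11 WT-KCB and 4 WT-KCP cells met the basal limits, and the WT-KCI cell met none of the limits. With 1 embryo there were no replicates and no test was made.

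Itga3 was 127 to 501 CPM in WT-KCB, with a median of 239.5 CPM, and the 4 WT-KCP cells had 296, 291, 323 and 0.630 CPM. Itgb1 was 112 to 652 CPM in WT-KCB and 257, 289.7, 119 and 139 CPM in WT-KCP cells 1 to 4. The summed levels differed 1.02-fold for Itga3 and 1.57-fold for Itgb1, with overlapping cells.

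Fermt1 had 24.9 to 163 CPM in WT-KCB and 61.98, 77.96, 33.8 and 134.6 CPM in WT-KCP cells, and the sums differed 1.13-fold. Fermt2 had 0 to 159 CPM in WT-KCB, with a median of 14.47 CPM, and 0.583, 21.7, 0.223 and 2.52 CPM in WT-KCP cells. Its summed level was 32.3 CPM (31.1 to 33.5) in WT-KCB and 5.96 CPM (5.11 to 6.91) in WT-KCP, 5.42-fold lower in WT-KCP with overlapping cells. Of the 9 genes counted (not Actn1), 0 were 2-fold higher, 1 was lower and 8 lay within 2-fold, beside 32.8% of 10601 genes in either direction, 16.5% higher and 16.3% lower in WT-KCP. The linkers Tln1, Vcl, Actn4, Zyx and Pxn differed by 1.06-fold to 1.44-fold in the sums.

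The values of the single WT-KCI cell are given as a description only. It had 0 counts of Fermt1, 0.485 CPM of Itga3 (0.132 to 1.24), 0.970 CPM of Itgb1 (0.419 to 1.91) and 0.243 CPM of Pxn (0.0294 to 0.876), while the lowest WT-KCB cell had 24.9, 127, 112 and 1.57 CPM of these genes. Zyx had 26.9 CPM, under the lowest WT-KCB cell with 93.6 CPM. Fermt2 had 83.3 CPM, Tln1 62.8 CPM, Vcl 37.6 CPM and Actn4 800.5 CPM, all within the range of the WT-KCB cells. Of the 9 genes counted, 1 was 2-fold higher, 5 were lower and 3 lay within 2-fold. Of 10420 genes, 58.5% passed 2-fold in either direction, 19.4% higher and 39.1% lower, so many genes differed in this cell. The share of all genes under every WT-KCB cell is not given, so nothing is read about the members from this cell. The total of this cell was 8244067 counts, within the range of the other paired cells.

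**Figure D5:**
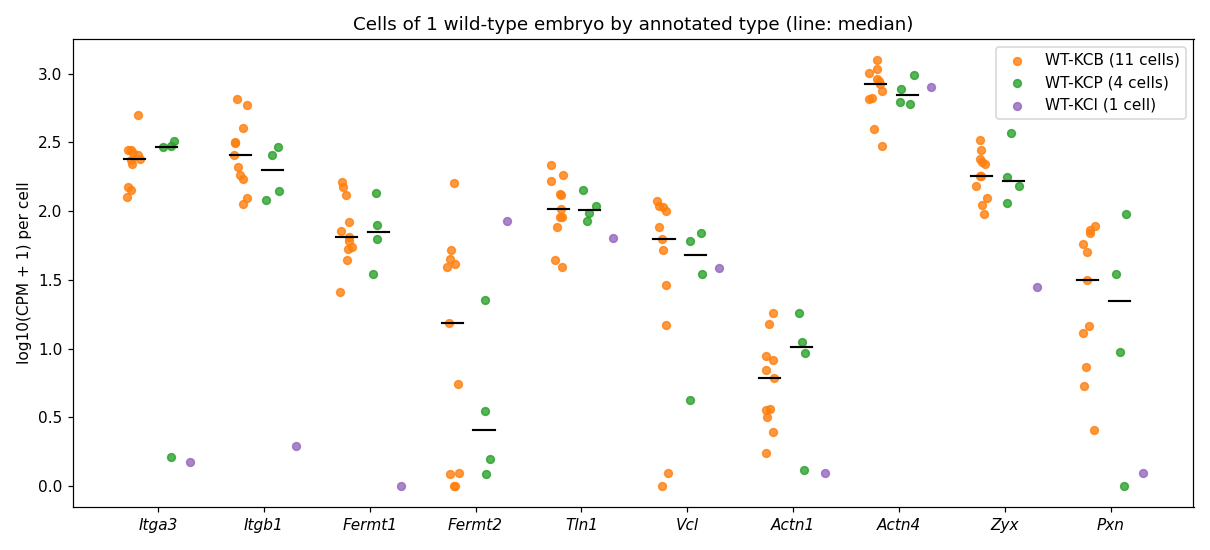
Levels of the 10 genes (horizontal axis) as log10(CPM + 1) per cell (vertical axis) in 11 WT-KCB, 4 WT-KCP and 1 WT-KCI cells of embryo WT01, with lines at the medians of the first and second group. The WT-KCI cell lies under every WT-KCB cell for Itga3, Itgb1, Fermt1, Zyx, Actn1 and Pxn, and 1 WT-KCP cell has 0.630 CPM of Itga3. The share of all genes under every WT-KCB cell in the WT-KCI cell is not given, so nothing is read about the members from it.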

How the data were processed

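Libraries were made by the authors with SMART-Seq HT and Nextera XT and read on a HiSeq (150 bp paired ends). HISAT2 was used against mm10, and featureCounts with the genes of Ensembl release 97. Strand and multi-mapping settings are not given in the sources used here. The deposited values are estimated counts that the authors did not normalize. Of the nonzero values, 23.2% were fractional, and all were rounded to whole numbers. Of 55335 gene IDs, 55154 matched a symbol, and all 10 members did. Gene positions and exon lengths came from GENCODE on GRCm38.

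CPM used column totals. For a state, counts were summed over columns. A fold against 0 used a limit of 3 counts over the group. No doublet caller was run. Folds were counted over genes with at least 10 CPM in either group. The code of the counting step was run on simulated counts with Poisson error only and 4-fold changes. That run did not cover the spread between columns and lends no weight to the folds. Per-column ratios used a pseudocount of 1 CPM. All 10 members were named, the paralogs, and adhesion genes of at least 10 CPM and 4-fold between states (at most 3 per role and direction). Ilk, Parva and Lims1 were chosen after their values were seen. The members and lists were chosen with earlier results of these data known. Alternatives changed scaling, marker limits, columns, fold limit and filter. The tools were Python 3.11.15 with numpy 2.4.6, scipy 1.17.1 and pandas 2.3.3, and matplotlib 3.10.9.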

Additional observations from a re-analysis of the deposited data

Results flagged for a closer look

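Within groups of 4 cells, the highest and lowest cell of each of the 10 genes was compared with the nearest other cell by Dixon's ratio, with a 95% critical value of 0.829. Only WT-KCP had such a size. The lowest of the 4 WT-KCP cells had 0.630 CPM of Itga3, while the others had 291 to 323 CPM. The highest of the 4 WT-KCP cells had 21.7 CPM of Fermt2, while the others had 0.223 to 2.52 CPM. For independent, normally distributed values chance alone marks about 1 in 20 groups. Levels of single cells need not follow that form, so the rate here is not known. The cells were of 1 embryo, and 10 genes were examined.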

How the results depend on the processing

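No paired analysis was possible because the states are pools of columns with no replicate numbers and the 16 labelled cells come from 1 embryo. None of the differences between states of at least 2-fold changed direction under an alternative that gave a value. For simple against basal columns, the 2 members past 2-fold became 1 with the mean of the columns' CPM, which lost Itga3, 6 at a fold limit of 1.5 and 1 at a limit of 4. At that limit the 5 members of mesenchymal against basal became 3, and the 5 of mesenchymal against simple 2. The difference of the Fermt1 to Fermt2 log2 ratio, basal minus simple (3.47), was 3.96 with the mean of the columns, 3.40 with marker limits halved, 3.41 without the column of 2 states, 3.32 without the paired columns, 3.61 without columns holding markers of other cell types and 3.41 without epithelial columns lacking epithelial markers. With the median of the columns it has no value, since the simple median of Fermt1 is 0. For Actn1 to Actn4, basal minus simple (0.71) was 0.89 with the mean, 3.72 with the median and 0.36 without the paired columns, and basal minus mesenchymal (-1.63) was -1.48, -1.32 and -1.98, and -1.53 with limits halved. The cause of these changes was not tested. In WT-KCP against WT-KCB, leaving out each cell in turn gave 1 to 2 members past 2-fold, with Pxn added without WT-KCP cell 1. The alternatives without columns holding other markers, without the highest column and without epithelial columns lacking epithelial markers were chosen after seeing the data. The filter on low depth left out 0 columns. Pxn in simple against basal and Vcl in mesenchymal against simple columns, just inside 2-fold, passed it with marker limits doubled and without epithelial columns lacking epithelial markers. By the median of the columns, Vcl and Pxn were also lower in mesenchymal than in basal columns, and Fermt2 was higher in simple than in basal columns.

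Amplified reads without molecular identifiers leave the Poisson intervals as counting error only, and states pool embryos and genotypes that cannot be told apart. Some cells have 0 counts of a gene that is high in other cells of their state (Ilk in simple columns), so a value of 0 in 1 cell does not show that the gene is silent.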
